A study of Mus musculus with 8 samples.

Results

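Egflam, Tcf23, Tfec and Ffar3 are 4 of the 21812 gene symbols in an RNA-seq table made from mouse embryonic stem cells, which were cultured in primitive endoderm-inducing medium. They were taken because their RNA was among the most reduced in the libraries labelled Virma_cKO, and because it was described as little changed in a second line, named after Mettl3. They were selected on the measured fold changes between cKO and WT libraries in both lines, so every value of these 4 genes in those comparisons is given as a description, with no test. There were 4 groups of 2 libraries each: Virma_cKO and Virma_WT in the Virma line, and Mettl3_cKO and Mettl3_WT in the Mettl3 line. All 4 groups shared the cells and the medium named in the labels. Each cKO group was labelled with its own genotype, and both WT groups were labelled WT. The labels do not name the allele, the agent or time of deletion, the number of clones, or separate cultures, so p-values measure only the spread between these libraries, which may be technical.

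The m6A writer is a protein complex that places N6-methyladenosine on RNA. Mettl3 encodes its catalytic subunit and Virma a large scaffold subunit. Primitive endoderm is the extraembryonic layer that forms beside the epiblast in the blastocyst, depends on GATA transcription factors and lays down a laminin and collagen basement membrane. The 4 genes have unlike products. Egflam encodes pikachurin, a secreted matrix protein with laminin G domains that binds dystroglycan and is best known at the photoreceptor synapse. Tcf23 encodes a basic helix-loop-helix protein that lacks DNA binding of its own and inhibits partners of its class, and it is known from the uterus. Tfec encodes a basic helix-loop-helix leucine zipper factor of the MiT/TFE family, known from macrophages. Ffar3 encodes a Gi/o-coupled receptor for short-chain fatty acids, known from enteroendocrine cells and sympathetic neurons.

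The deposited values are whole numbers, but they are not read counts. In both Mettl3_WT libraries the values 1, 2 and 4 did not occur at all, whereas 934 and 897 genes stood at 3. Every value of 1 to 100 in the table can be reached by multiplying whole reads by 1 factor per library and rounding, which for both Mettl3_WT libraries allows 39 and 36 of those 100 numbers, though for the Virma libraries it allows all of them. That factor, the worth of 1 read as estimated from which low values are frequent, was 0.680 and 0.699 in Virma_cKO, 0.676 and 0.689 in Virma_WT, 0.947 and 1.04 in Mettl3_cKO, and 2.55 and 2.76 in Mettl3_WT. The deposited totals of 15568628 to 17306227 per library then correspond to an estimated 22980000 and 22290000 reads in Virma_cKO, 25600000 and 25020000 in Virma_WT, 17620000 and 16000000 in Mettl3_cKO, and 6700000 and 6200000 in Mettl3_WT. A value below is such a normalised count, comparable between libraries as deposited, and the reads behind it are estimates from these factors. The Mettl3_WT values therefore rest on the fewest reads.

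The targeted genes do not check the labels, because values are summed over a whole gene and do not show which exons are lost. Virma stood at 1173 and 1214 in the libraries labelled Virma_cKO and at 1564 and 1488 in Virma_WT, and it fell by 0.35 ± 0.05 on the log2 scale (limma, Benjamini-Hochberg adjusted p = 1.83e-06). Mettl3 stood at 588 and 560 in the libraries labelled Mettl3_cKO and at 596 and 588 in Mettl3_WT, and its difference of -0.04 ± 0.06 did not pass (limma, adjusted p = 0.560). Directions below are between libraries so labelled.

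The promoter windows are shown first because the 4 genes were reduced together and because primitive endoderm depends on GATA factors. The windows cover 250 bases before to 50 bases after the annotated start in RefSeq on GRCm38.p6, another build than the mm39 that the submitters' processing notes name, and all 4 genes had a window. They lie at chr6:16898392-16898691 on the minus strand for Tfec, chr7:30856129-30856428 on the minus strand for Ffar3, chr5:30968427-30968726 on the plus strand for Tcf23 and chr15:7398346-7398645 on the minus strand for Egflam. Each is written 5′ to 3′ along its gene, and capitals mark every match to the motifs AGATAA and TGATAA, which are forms of the GATA site, to CACGTG and CAGCTG, which are E-box forms, and to TATAAA, on either strand.
Tfec: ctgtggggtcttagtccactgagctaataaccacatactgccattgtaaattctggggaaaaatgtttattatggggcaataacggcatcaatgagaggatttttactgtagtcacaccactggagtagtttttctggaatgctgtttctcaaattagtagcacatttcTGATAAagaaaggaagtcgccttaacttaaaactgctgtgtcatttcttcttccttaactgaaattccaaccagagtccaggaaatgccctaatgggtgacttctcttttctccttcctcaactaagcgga
Ffar3: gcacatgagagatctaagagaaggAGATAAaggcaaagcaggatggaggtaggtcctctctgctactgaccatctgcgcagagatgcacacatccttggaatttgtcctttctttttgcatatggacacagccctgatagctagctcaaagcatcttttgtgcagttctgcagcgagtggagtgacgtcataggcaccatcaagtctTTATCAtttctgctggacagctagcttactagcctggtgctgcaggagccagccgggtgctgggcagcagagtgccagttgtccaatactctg
Tcf23: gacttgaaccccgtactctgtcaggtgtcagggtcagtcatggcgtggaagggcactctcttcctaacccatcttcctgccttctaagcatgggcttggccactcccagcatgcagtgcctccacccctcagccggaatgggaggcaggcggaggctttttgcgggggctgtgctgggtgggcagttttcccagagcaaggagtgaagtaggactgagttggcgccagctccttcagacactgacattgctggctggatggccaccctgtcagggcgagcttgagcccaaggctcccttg
Egflam: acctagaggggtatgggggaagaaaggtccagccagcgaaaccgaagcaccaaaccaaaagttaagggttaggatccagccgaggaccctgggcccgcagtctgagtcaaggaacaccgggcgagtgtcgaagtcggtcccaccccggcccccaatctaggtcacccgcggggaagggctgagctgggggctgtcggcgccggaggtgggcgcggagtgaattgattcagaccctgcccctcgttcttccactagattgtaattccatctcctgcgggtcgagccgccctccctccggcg
Tfec held TGATAA 81 bases before the start. Ffar3 held AGATAA 226 bases before the start and TGATAA on the other strand, printed as TTATCA, 43 bases before it. No match to any of the 5 motifs was found in the Tcf23 window or in either of the Egflam windows that RefSeq lists. Among all 32851 windows of this length, 18.6% held AGATAA or TGATAA on either strand, and 10.0% of those of tested genes did. Of all windows 7.15% held CACGTG, 16.3% held CAGCTG and 13.6% held TATAAA. The windows also differed in base composition: the Egflam window printed here had 63.0% G and C and 22 CpG sites and that of Tfec 40.3% and 3, against medians of 52.7% and 7 over all windows. The Tcf23 window had 60.3% and 7, and the Ffar3 window 50.3% and 4.

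Egflam had the highest normalised counts of the 4 genes in every library. It stood at 22 and 23 in Virma_cKO, against 407 and 418 in Virma_WT. The groups lay far apart, and each pair of libraries agreed closely. The Virma_cKO mean of 22.5 ± 0.707 was 5.45% of the Virma_WT mean of 412.5 ± 7.78 (SD, n = 2 each), with a 95% counting interval of 4.16 to 6.97%. The estimated reads behind it were 65 in Virma_cKO and 1209 in Virma_WT. In the Mettl3 line Egflam stood at 231 and 203 in Mettl3_cKO, against 459 and 486 in Mettl3_WT, and these groups did not overlap either. The Mettl3_cKO mean was 45.9% of the Mettl3_WT mean (95% counting interval 40.0 to 53.2%). All intervals given cover counting error only.

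Tcf23 stood at 16 and 20 in Virma_cKO, against 258 and 321 in Virma_WT. The Virma_WT libraries differed from each other more than those of Egflam did, yet both lay far above either Virma_cKO library. The Virma_cKO mean of 18.0 ± 2.83 was 6.22% of the Virma_WT mean of 289.5 ± 44.5 (SD, n = 2 each; 95% counting interval 4.69 to 8.34%). In Mettl3_cKO the values were 156 and 173, against 252 and 257 in Mettl3_WT. There too the groups did not overlap, and the Mettl3_cKO mean was 64.6% of the Mettl3_WT mean (95% counting interval 54.0 to 77.6%).

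Tfec stood at 12 and 15 in Virma_cKO, against 187 and 174 in Virma_WT. The Virma_cKO mean of 13.5 ± 2.12 was 7.48% of the Virma_WT mean of 180.5 ± 9.19 (SD, n = 2 each; 95% counting interval 5.23 to 10.3%). In Mettl3_cKO it stood at 146 and 152, against 201 and 146 in Mettl3_WT. One Mettl3_WT library shared its value with a Mettl3_cKO library, so these groups overlapped, and Tfec was the only one of the 4 genes for which they did. The Mettl3_WT values rest on an estimated 79 and 53 reads. The counting interval of the ratio, 69.0 to 105%, includes equal levels, and the log2 fold change changed sign when a single Mettl3_WT library was left out, with 0.03 without replicate 1 and -0.43 without replicate 2.

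Ffar3 was the scarcest in the Virma line and the most unequal between the lines. It stood at 2 and 0 in Virma_cKO, against 39 and 49 in Virma_WT. These are an estimated 3 reads and 0 reads in Virma_cKO, and 58 and 71 reads in Virma_WT. The Virma_cKO mean was 2.27% of the Virma_WT mean, with a wide 95% counting interval of 0.478 to 7.02%. A value of 0 at the depth of that Virma_cKO library means that no read was counted, not that the gene was silent. In Mettl3_cKO the values were 75 and 73, against 176 and 232 in Mettl3_WT, so both Mettl3_cKO libraries lay well below both Mettl3_WT libraries. Their mean was 36.3% of the Mettl3_WT mean (95% counting interval 28.9 to 45.9%).

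**Figure D1:**
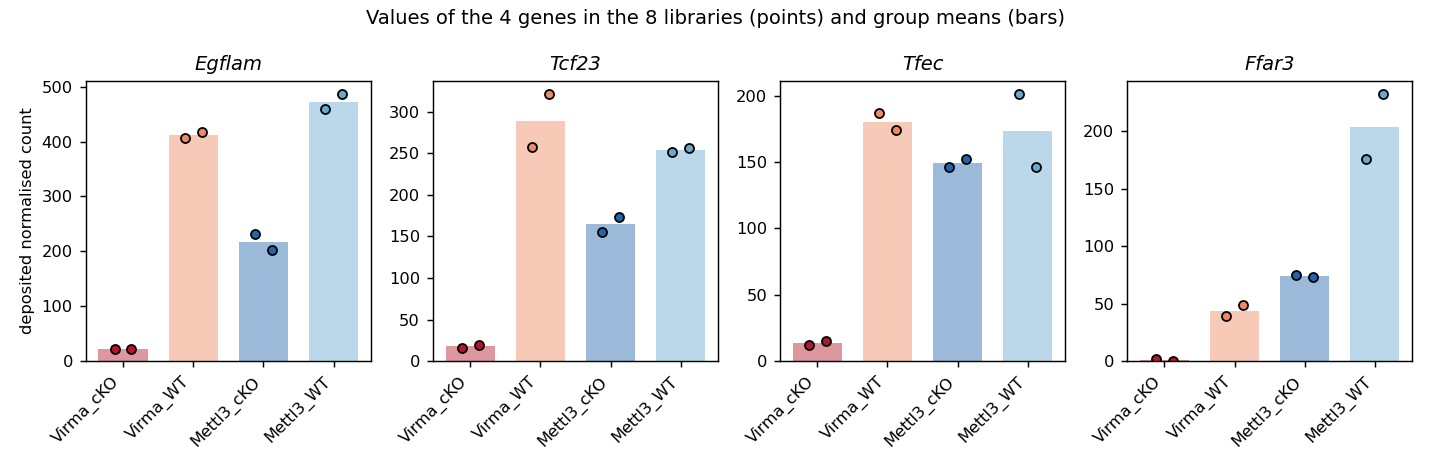
Normalised counts of Egflam, Tcf23, Tfec and Ffar3 (vertical axes, linear from 0) in each of the 8 libraries, as points, with group means as bars; the groups run from Virma_cKO to Mettl3_WT. Both Virma_cKO points sit near 0 for each gene, Tfec overlaps between Mettl3_cKO and Mettl3_WT at 146, and Ffar3 has its highest values, 176 and 232, in Mettl3_WT.

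On the scale on which all genes were fitted, log2 of the value plus 1, the differences between Virma_cKO and Virma_WT were -4.14 ± 0.11 for Egflam, -3.93 ± 0.15 for Tcf23, -3.65 ± 0.18 for Tfec and -4.69 ± 0.37 for Ffar3 (± SE). Adding 1 understates the change of a gene as low as Ffar3, whose difference was -5.48 without replicate 1 of Virma_cKO and -3.90 without replicate 2. Over all 14287 genes tested the median was 0.00 in that comparison. In 41.5% of the tested genes both Virma_cKO libraries lay below both Virma_WT libraries, and 61% passed the test in either direction. The log2 fold change was under -1 in 4.4% and under -3 in 0.21%, as it was for all 4 genes by their choice. In the Mettl3 line the differences were -1.12 ± 0.11 for Egflam, -0.63 ± 0.15 for Tcf23, -0.20 ± 0.18 for Tfec and -1.44 ± 0.37 for Ffar3. Both Mettl3_cKO libraries lay below both Mettl3_WT libraries in 37.3% of tested genes, as they did for Egflam, Tcf23 and Ffar3. A log2 fold change under -1 in the Mettl3 line was found in 1.83% of tested genes, among them Egflam and Ffar3. The description of the 4 genes as little changed in the Mettl3 line therefore held for Tfec and went against the values of Egflam and Ffar3, which stood at 45.9% and 36.3% of their Mettl3_WT means, while Tcf23 lay between. The Virma effect minus the Mettl3 effect was -3.02 ± 0.16 for Egflam, -3.31 ± 0.21 for Tcf23, -3.45 ± 0.25 for Tfec and -3.25 ± 0.53 for Ffar3, again by their choice. That difference was under -1 in 4.77% and under -3 in 0.161% of tested genes, and it passed the test in 46.6%, with 25.4% lower and 21.2% higher.

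Among the 11589 tested genes with a mean Virma_WT value of at least 44, that of Ffar3, the 4 genes took ranks 2 (Ffar3), 3 (Egflam), 5 (Tcf23) and 9 (Tfec) by the depth of the log2 difference in the Virma line. The genes between and beside them, named here by rank after their values were seen, were Aqp8 at rank 1 (-4.78 ± 0.06), Cubn at 4, Srgn at 6 (-3.87 ± 0.05), Dkk1 at 7 and Cyp4f14 at 8 (-3.78 ± 0.28), and the next after Tfec was Fgf10 at 10. In the Mettl3 line the differences were -1.46 ± 0.06 for Aqp8, -0.67 ± 0.05 for Srgn and -1.30 ± 0.28 for Cyp4f14. Egflam, Tcf23, Tfec and Ffar3 were therefore not the whole of the genes with falls of this depth.

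**Figure D2:**
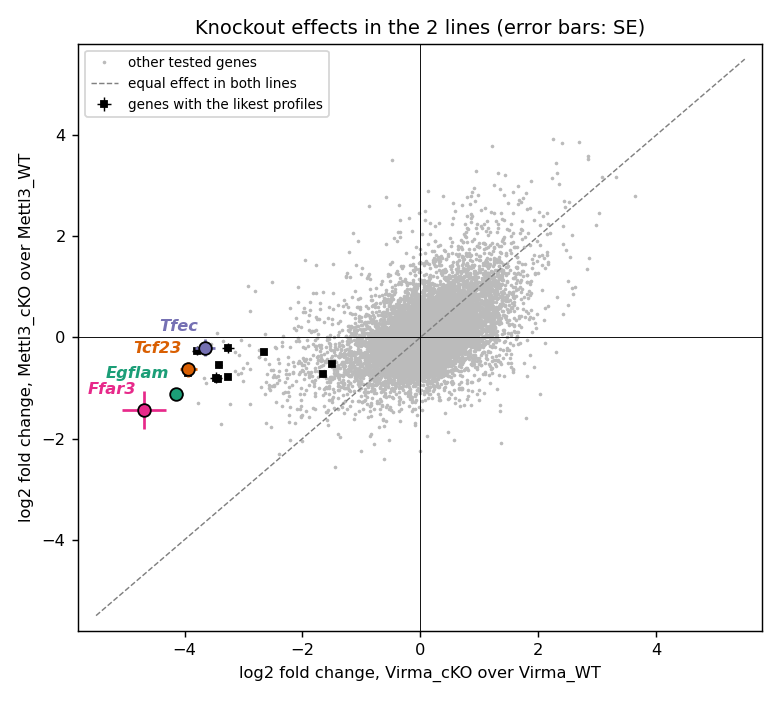
Log2 fold change of Virma_cKO over Virma_WT (horizontal) against that of Mettl3_cKO over Mettl3_WT (vertical) for 14287 tested genes; error bars are SE, black squares are the genes with the likest profiles, and the dashed line marks equal effects. All 4 genes lie far to the left, between -3.65 and -4.69, with Mettl3 differences of -0.20 for Tfec to -1.44 for Ffar3, above the dashed line.

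The groups did not fall in the same order for every gene. For Egflam it ran from Mettl3_WT at a mean of 472.5 through Virma_WT at 412.5 and Mettl3_cKO at 217 to Virma_cKO at 22.5, with no overlap between neighbours. Tcf23 ran from Virma_WT at 289.5 through Mettl3_WT at 254.5 and Mettl3_cKO at 164.5 to Virma_cKO at 18, where the Mettl3_WT values of 252 and 257 lay just below the lower Virma_WT value of 258. Tfec values overlapped along the order Virma_WT, Mettl3_WT and Mettl3_cKO, and Virma_cKO alone lay apart. Ffar3 ran from Mettl3_WT at 204 through Mettl3_cKO at 74 and Virma_WT at 44 to Virma_cKO at 1. It was the only one of the 4 genes with a Mettl3_cKO mean above the Virma_WT mean, by 1.68 times, and its Virma_WT mean was 0.216 of its Mettl3_WT mean. Both Virma_WT libraries lay below both Mettl3_WT libraries for Egflam and Ffar3, as they did in 32.4% of tested genes. For Egflam, Tcf23 and Tfec the ratio of Virma_WT to Mettl3_WT was 0.873 to 1.14. Line and library depth cannot be told apart in comparisons between the lines, since the Mettl3_WT libraries were also the shallowest.

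Per kilobase of annotated exon the values can be set between genes. In Virma_WT the levels per kilobase were 67.4 for Egflam, 70.3 for Tcf23, 32.3 for Tfec and 23.8 for Ffar3, so Egflam and Tcf23 were close and Ffar3 was lowest. In Mettl3_WT Ffar3 was highest, at 110.0 per kilobase, against 77.2 for Egflam, 61.8 for Tcf23 and 31.0 for Tfec. In Virma_cKO the levels per kilobase were 3.68 for Egflam, 4.37 for Tcf23, 2.41 for Tfec and 0.541 for Ffar3. By the average log2 value over 8 libraries, 36.5% of tested genes lay below Egflam, 30.9% below Tcf23, 27.0% below Tfec and 15.4% below Ffar3. That average includes the Virma_cKO libraries, where the 4 genes were low by their choice.

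The genes with the likest profiles over the 8 libraries were found by the root mean square difference of profiles in log2 units, each centred on its own mean. For Egflam these were Lama1 (0.226), the laminin chain that leads the primitive endoderm basement membrane, the endocytic receptor gene Cubn (0.229) and the transcription factor gene Sox7 (0.245). For Tcf23 they were Fgf10 (0.159), Sox7 (0.166) and the Wnt antagonist gene Dkk1 (0.197). For Tfec they included Amn (0.142), the membrane partner of cubilin, and the transcription factor gene Gata4 (0.208). Ffar3 had no profile as near: its likest genes were Cyp26a1 (0.494), which encodes an enzyme that clears retinoic acid, Npl (0.504) and the homeobox gene Rhox5 (0.552). Of these 10 genes, Lama1, Cubn, Sox7, Amn and Gata4 stand in the list of primitive endoderm markers, and Dkk1 in that of visceral endoderm markers. The 10 genes were picked for resembling genes chosen on the same values, so their place in these lists is a description and supports nothing. Lama1 stood at 4794 and 4728 in Virma_cKO, against 45971 and 45592 in Virma_WT, and at 35428 and 35313 in Mettl3_cKO, against 60606 and 61032 in Mettl3_WT. Among the 4 genes themselves the nearest pairs were Tcf23 and Tfec (0.260) and Egflam and Tcf23 (0.263), and the pairs with Ffar3 lay at 0.714 to 0.808. The profiles share the 8 libraries and the same low Virma_cKO values.

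**Figure D3:**
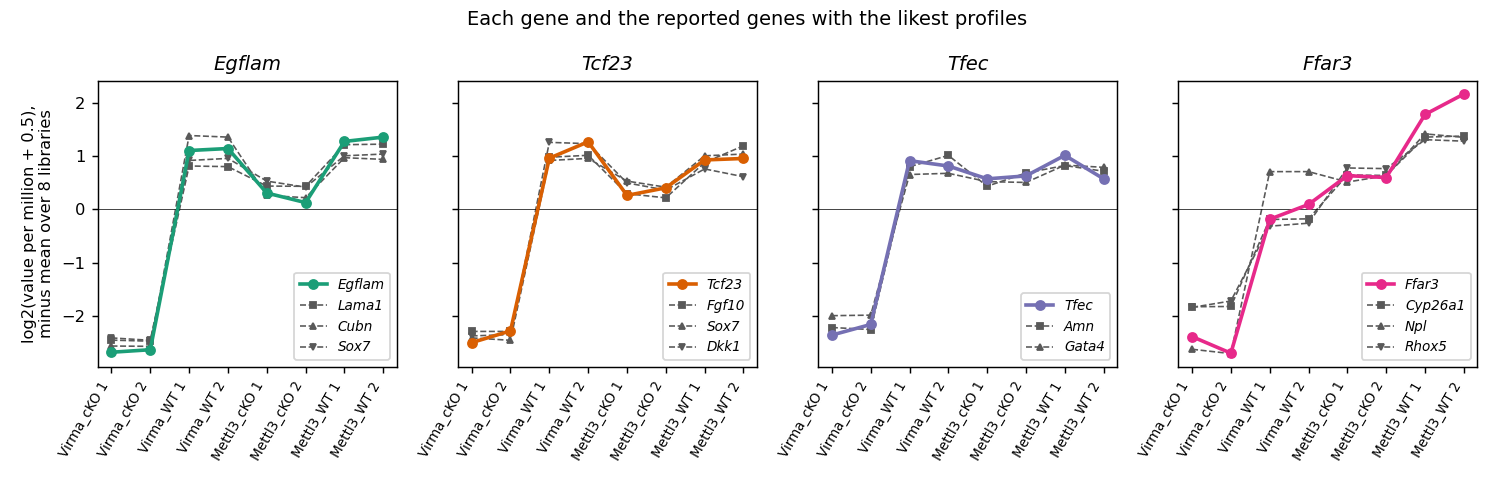
Centred log2 profiles of each gene, in colour, and of the reported genes with the likest profiles, dashed, across the 8 libraries. For the vertical axis, each value was divided by the same constant in every library before 0.5 was added and log2 taken. The mean over 8 libraries was then subtracted. No library was scaled to its own total. The Egflam, Tcf23 and Tfec lines run close to their likest genes, within 0.142 to 0.245 log2 units on average, whereas Ffar3 stands 0.494 or more from any gene shown and is highest in Mettl3_WT.

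In Virma_cKO the primitive endoderm markers fell as these genes did, whereas the fibroblast markers rose. All 12 primitive endoderm markers used here were tested and 12 fell in Virma_cKO (limma, adjusted p under the 0.05 threshold for each), with a median log2 fold change of -2.88. Their summed values were 21371 and 21610 in Virma_cKO, against 136151 and 137898 in Virma_WT. In the Mettl3 line 10 of the 12 fell, with a median of -0.55 and sums of 111471 and 111845 in Mettl3_cKO, against 172471 and 173603 in Mettl3_WT. None of these markers was at 0 in any library. Over all tested genes 31.8% fell and 29.2% rose in Virma_cKO, and 29.3% fell and 28.1% rose in Mettl3_cKO. The split depends on scaling: 52.1% of the calls in Virma_cKO were lower with the values as deposited and 35.6% when each library was scaled by its total, which moves the median of all genes by 0.145 on the log2 scale, and in Mettl3_cKO the shares were 51.1% and 46%. The 11 fibroblast markers were all higher in Virma_cKO, with sums of 20194 and 19982, against 8701 and 8656 in Virma_WT, and 10 of 11 rose in Mettl3_cKO, with sums of 6644 and 6544, against 3546 and 3778 in Mettl3_WT. In bulk RNA, fewer cells of a type and less RNA per cell cannot be told apart, and the part of these cell types in the values of the 4 genes was not tested.

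Other marker lists gave less uniform counts. They stand beside 31.8% lower and 29.2% higher of all tested genes in Virma_cKO, and 29.3% and 28.1% in Mettl3_cKO. Of visceral endoderm markers 6 of 9 tested fell in Virma_cKO and 1 fell and 1 rose in Mettl3_cKO. Ttr, counted among the 6, stood at 2 and 1 in Virma_cKO, against 21 and 14 in Virma_WT. It met the filter on low values only through Virma_WT, no other library being above 9, so its fall is a description only. Of parietal endoderm markers 5 of 7 fell and 1 rose in each cKO group. Of pluripotency markers 7 of 10 fell and 2 rose in Virma_cKO, and 5 fell and 4 rose in Mettl3_cKO. Of trophoblast markers 2 of 9 fell and 3 rose in Virma_cKO, and 4 fell and 3 rose in Mettl3_cKO. Elf5, counted among those that rose in Mettl3_cKO, stood there at 13 and 15. It met the filter only through these libraries, no other being above 5, so its rise is a description only.

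Markers of the cells in which each of the 4 genes is best known were partly absent and partly present. Their calls stand beside the same shares of all tested genes, 31.8% lower and 29.2% higher in Virma_cKO, and 29.3% and 28.1% in Mettl3_cKO. Of the photoreceptor markers Nrl was at 0 in all 8 libraries, Crx and Rcvrn reached at most 3 and 1, and 1 of 2 tested markers rose in each cKO group. Of the macrophage markers, Ptprc and Adgre1 reached at most 1, 3 of 8 were tested and no call was made in either line, with Cd68 between 381 and 520 in every library. Of the enteroendocrine and sympathetic markers Gcg and Dbh reached at most 3 and 1, whereas Chga stood at 343 and 347 in Virma_cKO, against 365 and 420 in Virma_WT, and at 590 and 566 in Mettl3_cKO, against 321 and 356 in Mettl3_WT. Of 6 tested 1 fell and 1 rose in Virma_cKO and 2 rose in Mettl3_cKO. The marker that fell in Virma_cKO was Pyy, at 1 and 3, against 13 and 7 in Virma_WT. Pyy stood at 21 and 31 in Mettl3_cKO, against 33 and 25 in Mettl3_WT. The marker that rose in Virma_cKO was Neurod1, at 46 and 51, against 29 and 25 in Virma_WT. Of 7 tested gonad and uterus markers 1 fell in Virma_cKO, and 1 fell and 1 rose in Mettl3_cKO. The one that fell in both was Hoxa10, at 74 and 85 in Virma_cKO, against 149 and 145 in Virma_WT, and at 117 and 100 in Mettl3_cKO, against 163 and 157 in Mettl3_WT, and Star and Esr1 lay between 31 and 69 in every library. In Virma_WT, where Egflam stood at 407 and 418, the photoreceptor markers summed to 90 and 94, most of it from Rom1, whose rise in Virma_cKO (0.45 ± 0.16, limma, adjusted p = 0.0194) no longer passed when replicate 1 of Virma_cKO (adjusted p = 0.232) or replicate 1 of Virma_WT (adjusted p = 0.160) was left out.

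Of the 3 relatives of Tfec, 1 fell, 1 rose and 1 did not pass in Virma_cKO, beside 31.8% lower and 29.2% higher of all tested genes. Tfeb, a master regulator of lysosome genes, stood at 214 and 208 in Virma_cKO, against 487 and 480 in Virma_WT, and fell by 1.19 ± 0.09 on the log2 scale (limma, adjusted p = 4.13e-10), the same direction as Tfec with a smaller size. Mitf, the melanocyte regulator of this family, stood at 76 and 78, against 51 and 43, and rose by 0.71 ± 0.21 (limma, adjusted p = 0.0064), which no longer passed when replicate 2 of Virma_WT was left out (adjusted p = 0.0767). Tfe3 had a log2 fold change of -0.01 ± 0.05 in Virma_cKO (limma, adjusted p = 0.872), which under scaling by total was 0.14 and passed. In Mettl3_cKO neither Tfeb (0.03 ± 0.09) nor Mitf (-0.18 ± 0.21) passed. Tfe3 rose there by 0.13 ± 0.05 (limma, adjusted p = 0.0465), a call lost when any single library other than replicate 1 of Mettl3_WT was left out (adjusted p 0.0649 to 0.400). Across the 4 genes of the family the log2 fold changes in Virma_cKO thus ran from -3.65 for Tfec to 0.71 for Mitf.

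Genes on which the MiT/TFE family acts or that act on it moved in both directions. Of 14 folliculin, Rag GTPase and Ragulator genes, which relay nutrient state to these factors at the lysosome, 4 fell and 3 rose in Virma_cKO and 4 fell and 5 rose in Mettl3_cKO. Rragd rose by 0.88 ± 0.07 in Virma_cKO (limma, adjusted p = 3.33e-09) and Lamtor1 fell by 0.53 ± 0.04 (limma, adjusted p = 2.49e-09). Of 23 tested lysosome and autophagy genes known as targets of the family, 9 fell and 7 rose in Virma_cKO, with a median of -0.09, and 7 fell and 5 rose in Mettl3_cKO, with a median of 0.04. Among them the autophagy receptor gene Sqstm1 rose by 0.78 ± 0.03 in Virma_cKO (limma, adjusted p = 1.71e-14) and the proton pump gene Atp6v0d1 fell by 0.60 ± 0.04 (limma, adjusted p = 4.50e-11). Beside the counts of both lists stand 31.8% lower and 29.2% higher of all tested genes in Virma_cKO, and 29.3% and 28.1% in Mettl3_cKO.

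Egflam belongs to the laminin G domain ligands of dystroglycan. Of 10 tested ligands, Egflam not counted, 4 fell and 5 rose in Virma_cKO and 4 fell and 3 rose in Mettl3_cKO, beside 31.8% lower and 29.2% higher of all tested genes in Virma_cKO and 29.3% and 28.1% in Mettl3_cKO. Lama1 fell by 3.27 ± 0.02 in Virma_cKO (limma, adjusted p = 1.10e-28) and by 0.78 ± 0.02 in Mettl3_cKO (limma, adjusted p = 4.80e-17). The perlecan gene Hspg2 fell by 0.72 ± 0.02 in Virma_cKO and Lama3 by 0.73 ± 0.08, both called, and the agrin gene Agrn fell by 0.24 ± 0.03. Among those that rose there were Lama2 (1.39 ± 0.30), Lama4 (1.06 ± 0.20), Lama5 (0.33 ± 0.03) and the neurexin gene Nrxn2 (0.82 ± 0.10). The receptor gene itself, Dag1, stood at 11396 and 11002 in Virma_cKO, against 6908 and 6506 in Virma_WT, and rose by 0.74 ± 0.03 (limma, adjusted p = 3.71e-14). Of 14 tested genes of dystroglycan, its glycosylation and the receptors that bind pikachurin, 8 rose and 2 fell in Virma_cKO, and 9 rose and 3 fell in Mettl3_cKO, beside the same shares of all tested genes, 29.2% higher in Virma_cKO and 28.1% in Mettl3_cKO. One of those that fell, Gpr179, which encodes a partner of pikachurin at the photoreceptor synapse, stood at 7 and 6 in Virma_cKO, against 22 and 28 in Virma_WT (-1.79 ± 0.31, limma, adjusted p = 5.61e-05), and at 20 and 24 in Mettl3_cKO, against 48 and 52 in Mettl3_WT (-1.15 ± 0.31, limma, adjusted p = 0.00394).

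Of 12 tested tissue-restricted basic helix-loop-helix relatives of Tcf23, 3 fell and 3 rose in Virma_cKO, beside 31.8% and 29.2% of all tested genes, and 1 fell and 6 rose in Mettl3_cKO, beside 29.3% and 28.1%. Tal1, a blood and vessel regulator, stood at 55 and 57 in Virma_cKO, against 147 and 136 in Virma_WT, and fell by 1.32 ± 0.15 (limma, adjusted p = 1.86e-07), and in Mettl3_cKO it rose by 0.61 ± 0.15 (limma, adjusted p = 0.00152), which no longer passed when replicate 1 of Mettl3_cKO was left out (0.41, adjusted p = 0.0648). Msc fell by 1.47 ± 0.43 at values of 4 and 6 in Virma_cKO, against 14 and 17 in Virma_WT (limma, adjusted p = 0.00539; 0.0600 without replicate 1 of Virma_cKO and 0.0627 without replicate 2 of Virma_WT). Tcf15 fell by 0.26 ± 0.05 in Virma_cKO (limma, adjusted p = 0.000279), a call lost under scaling by total, and rose by 0.89 ± 0.05 in Mettl3_cKO (limma, adjusted p = 2.32e-11). Mesp2 rose in both, by 1.10 ± 0.23 and 1.26 ± 0.23. Tcf24, the closest relative by name, stood at 66 and 65 in Virma_cKO, against 43 and 25 in Virma_WT.

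The E proteins, with which such factors pair, were Tcf3, Tcf4 and Tcf12. Tcf3 fell by 0.45 ± 0.04 in Virma_cKO (limma, adjusted p = 5.21e-09), whereas Tcf4 rose by 0.43 ± 0.08 (limma, adjusted p = 0.000116) and Tcf12 by 0.52 ± 0.05 (limma, adjusted p = 2.52e-08). Of the 7 E protein and Id genes together 2 fell and 4 rose in Virma_cKO, and 1 fell and 4 rose in Mettl3_cKO, with the same shares of all tested genes beside them. Id1, which encodes another inhibitor of E proteins, fell by 0.30 ± 0.08 in Virma_cKO (limma, adjusted p = 0.00379), a call lost under scaling by total (-0.15, adjusted p = 0.113).

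Ffar3 had higher values in both WT groups than any other receptor of its kind. Of 7 other free fatty acid and hydroxycarboxylic acid receptors that have a row 2 passed the filter on low values, and the other 5 reached at most 9 in any library. Ffar2, the other short-chain fatty acid receptor, stood at 6 and 2 in Virma_cKO, against 5 and 5 in Virma_WT, and at 12 and 8 in Mettl3_cKO, against 31 and 6 in Mettl3_WT. It passed in neither line (log2 fold changes -0.39 ± 0.65 and -0.47 ± 0.65), and in the Mettl3 line the value rests on a single library, with -1.56 without replicate 2 of Mettl3_WT (limma, adjusted p = 0.0150). Ffar4, a receptor for long-chain fatty acids, stood at 15 and 13 in Virma_cKO, against 2 and 4 in Virma_WT, a log2 difference of 1.95 ± 0.57. It met the filter on low values only through its Virma_cKO libraries, no other library being above 9, so its difference is given with no test. Of 7 tested genes for short-chain fatty acid transport and activation, 4 fell and 1 rose in Virma_cKO and 3 fell in Mettl3_cKO. Among them the transporter gene Slc16a3 fell by 0.66 ± 0.06 and 0.49 ± 0.06. Of 13 tested Gi/o subunit, arrestin and RGS genes, through which such a receptor signals, 6 fell and 2 rose in Virma_cKO, and 5 fell and 4 rose in Mettl3_cKO. Beside both counts stand 31.8% lower and 29.2% higher of all tested genes in Virma_cKO, and 29.3% and 28.1% in Mettl3_cKO. Rgs3 fell by 1.38 ± 0.10 in Virma_cKO (limma, adjusted p = 4.21e-10) and Gnao1 by 0.91 ± 0.16 (limma, adjusted p = 5.70e-05).

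**Figure D4:**
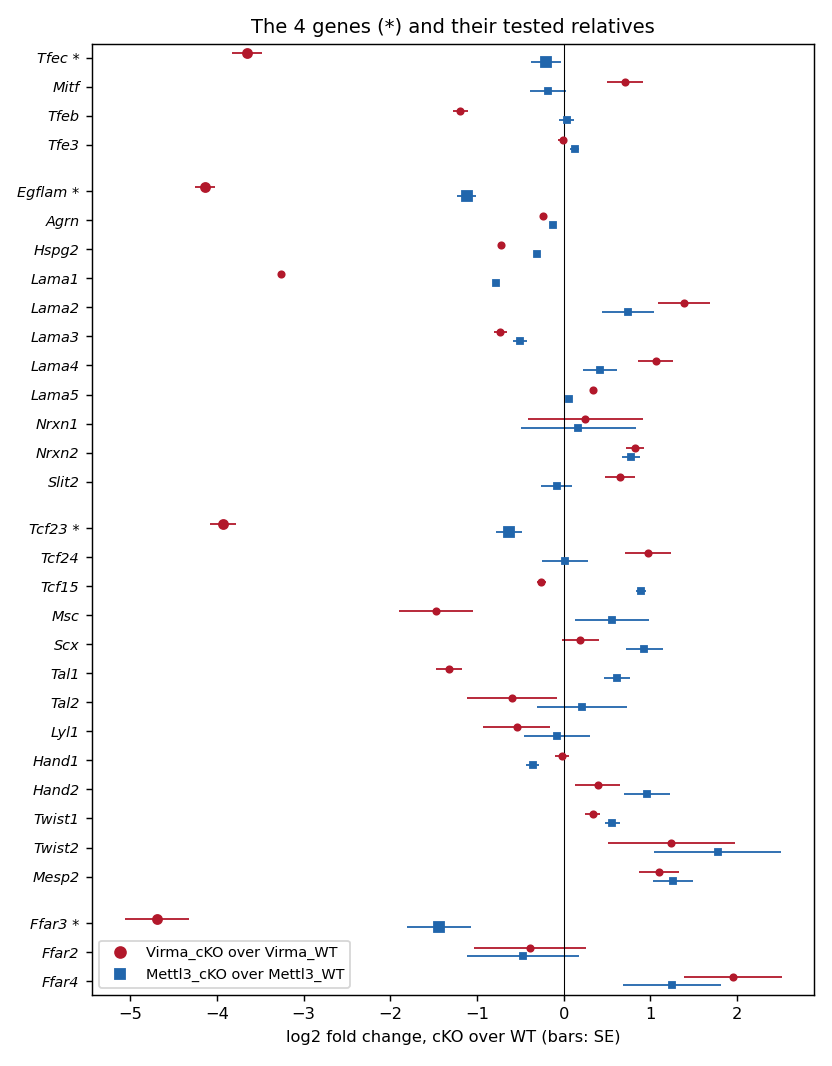
Log2 fold changes (horizontal axis, bars are SE) of Tfec, Egflam, Tcf23 and Ffar3, marked with asterisks, and of their tested relatives, with circles for Virma_cKO over Virma_WT and squares for Mettl3_cKO over Mettl3_WT. Lama1, at -3.27, is the only relative near the 4 genes, and the others lie between -1.47 for Msc and 1.95 for Ffar4 in the Virma line.

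The nearest genes on the chromosome were compared next, since a change across a whole region would move them together. Only the order of genes was taken from RefSeq on GRCm38.p6, for the listed genes that have a row in the table. Beside Egflam, the cytokine receptor gene Lifr stood at 214 and 214 in Virma_cKO, against 1020 and 996 in Virma_WT, and fell by 2.23 ± 0.06 (limma, adjusted p = 3.55e-17), and in Mettl3_cKO it fell by 1.16 ± 0.06 (limma, adjusted p = 2.64e-12). Next to Lifr, however, the related receptor gene Osmr rose by 0.92 ± 0.16 in Virma_cKO (limma, adjusted p = 5.04e-05), and on the other side Wdr70 fell by 0.50 ± 0.07 (limma, adjusted p = 1.20e-05) and Gdnf was too low to be tested.

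Around Tcf23, Preb fell by 0.50 ± 0.04 in Virma_cKO (limma, adjusted p = 3.65e-09), Cgref1 rose by 0.43 ± 0.07 (limma, adjusted p = 3.64e-05), Slc5a6 rose by 0.44 ± 0.07 (limma, adjusted p = 2.39e-05) and Atraid had 0.10 ± 0.12 (limma, adjusted p = 0.456). Around Tfec, Mdfic rose by 1.23 ± 0.16 in Virma_cKO (limma, adjusted p = 1.26e-06). Tes fell by 0.13 ± 0.05 (limma, adjusted p = 0.0322), a call that turned to 0.02 under scaling by total and was lost without any 1 of the 4 Virma libraries (adjusted p 0.0776 to 0.164), and Foxp2 and Cav2 were too low to be tested. Around Ffar3, Ffar2 (described above), Krtdap and Cd22 did not pass (-0.39 ± 0.65, -0.50 ± 0.58 and -0.61 ± 0.62 in Virma_cKO). None of these genes was above 6 in any Virma library, and Ffar1 was too low to be tested. In the Virma line Lifr had the deepest fall among the tested neighbours. That none fell as deeply as the gene it lies beside follows largely from the choice of the 4 genes by depth. A change across a whole region was not tested.

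**Figure D5:**
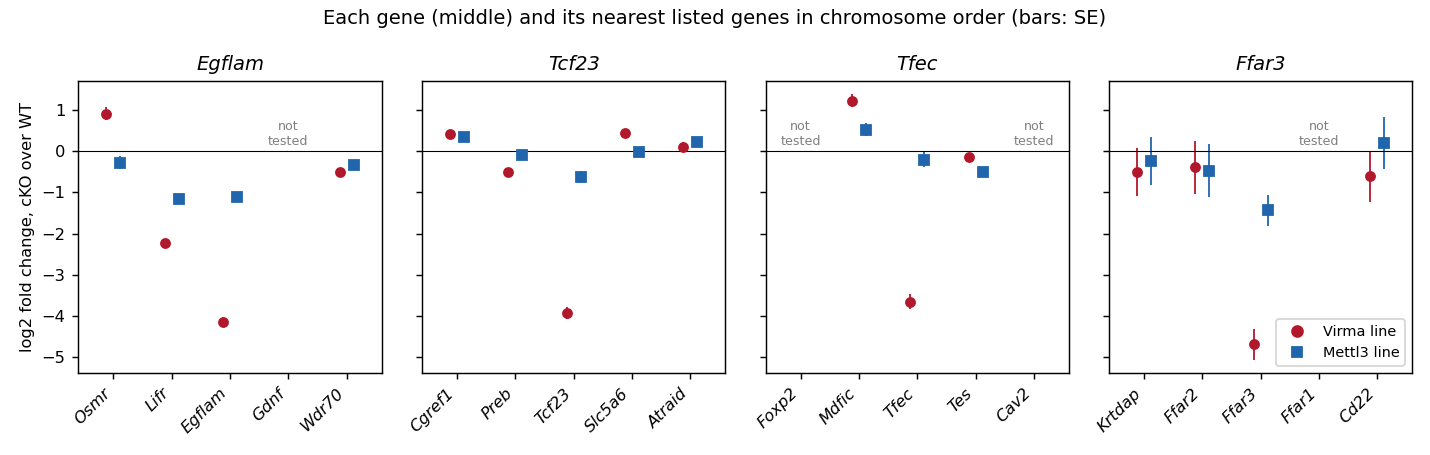
Log2 fold changes (vertical axis, bars are SE) of each gene, in the middle, and of the 2 nearest listed genes on each side in chromosome order, with circles for the Virma line and squares for the Mettl3 line. Neighbours in the Virma line lie between -2.23 for Lifr and 1.23 for Mdfic, and each middle gene lies at -3.65 or below.

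The transcripts of the 4 genes had little structure in common. In GENCODE M21 Egflam on chromosome 15 has 24 exon blocks, Tfec on chromosome 6 has 7, Tcf23 on chromosome 5 has 3 and Ffar3 on chromosome 7 has 1. The longest annotated transcript was 4778 bases for Egflam, 3384 for Tfec, 4116 for Tcf23 and 1625 for Ffar3, against a median of 3370 over the 13999 tested genes that matched. The motif GGACT, a common form of the methylation site, occurred 7 times in the Egflam transcript, 8 times in Tcf23, 1 time in Tfec and 5 times in Ffar3. Per kilobase this was 1.47 for Egflam, 1.94 for Tcf23, 0.296 for Tfec and 3.08 for Ffar3, against a median of 1.05, so that 8.91% of matched genes had a lower density than Tfec and 98.4% a lower density than Ffar3. Methylation itself was not measured in these libraries. In this annotation the exons of Egflam overlap 198 bases of the antisense gene Gm16029, which has no row in the table, and no other exonic overlap was found for the 4 genes. Whether reads were counted by strand is not stated by the labels or processing notes.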

How the data were processed

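Gene expression was measured by RNA-seq in 8 libraries. The authors deposited 1 table of whole numbers per gene symbol. The submitters' processing notes name FastQC 0.12.1, Trim Galore, STAR 2.7.11b, Subread, DESeq2 and the build mm39, with no role or order. From their values, the deposited numbers are a score: read counts multiplied by 1 factor per library and rounded, as the steps between low values show. A count model had been planned and was replaced by limma 3.58.1 (R 4.3.3) on log2(value + 1), with a mean-variance trend, robust settings and Benjamini-Hochberg adjustment at 0.05, for the 14287 of 21812 symbols with a value of at least 10 in at least 2 libraries. The 4 groups of 2 libraries shared 1 estimate of the spread, with 4 residual degrees of freedom per gene. Between the 2 libraries of a group the chi-square per degree of freedom was 1.33 in Virma_cKO, 1.91 in Virma_WT, 1.63 in Mettl3_cKO and 1.08 in Mettl3_WT in estimated reads, where 1 is counting error alone, and 0.914, 1.31, 1.62 and 2.84 in the deposited values. The Mettl3_WT pair is thus close to counting error. All 8 libraries were kept as separate samples. The procedure was tested on simulated data. Counting intervals (95%, exact binomial) use the estimated reads.

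The 4 genes and all gene lists were chosen with earlier results of these data known. Named genes were members of these lists, the nearest 2 listed genes on each side and the 3 tested genes with the likest profile, with 4 per long list. One gene among these is not reported here and was left out of its list. The library kits, of which the labels name 2 kinds without saying which library used which, cannot be told apart from the groups. Replicate numbers did not pair libraries, with correlations of deviations between same-numbered libraries of -0.0153 to 0.0151 over the 6 pairs of groups. Promoter windows and gene order come from RefSeq on GRCm38.p6, and transcripts from GENCODE M21.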

Additional observations from a re-analysis of the deposited data

Results flagged for a closer look

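The Virma effect minus the Mettl3 effect was tested for 58 of the genes named beside Egflam, Tcf23, Tfec and Ffar3. The test was an interaction in limma, with Benjamini-Hochberg adjustment over all 14287 genes. Those of the 58 past the threshold are given. The 58 genes were not drawn at random, and the share of them that passed is therefore not set beside that of all genes. The values are differences of log2 fold changes ± SE, each over 2 libraries per group. For Egflam, Tcf23, Tfec and Ffar3, which were chosen on both effects, the same quantity was -3.02 to -3.45, with no test.

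The genes with the likest profiles and the other genes with the deepest falls were picked for resembling genes chosen on this difference, so their values are a description and support nothing. Among the genes with the likest profiles, the most negative differences were those of Dkk1 (-3.52 ± 0.13), Cubn (-3.22 ± 0.04), Amn (-3.05 ± 0.14) and Sox7 (-2.87 ± 0.08). Next came Fgf10 (-2.66 ± 0.15), Npl (-2.62 ± 0.08), Lama1 (-2.48 ± 0.02) and Gata4 (-2.37 ± 0.05). Those of Rhox5 (-0.97 ± 0.06) and Cyp26a1 (-0.93 ± 0.05), both near Ffar3, were the smallest of these 10 genes.

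The other genes with the deepest falls had differences of -3.32 ± 0.08 for Aqp8, -3.19 ± 0.07 for Srgn and -2.47 ± 0.40 for Cyp4f14. Among relatives of Tfec and genes around the family, the difference was negative for Tfeb (-1.23 ± 0.13), Lamtor1 (-0.56 ± 0.06) and Atp6v0d1 (-0.45 ± 0.05) and positive for Mitf (0.89 ± 0.30), Rragd (0.55 ± 0.11) and Sqstm1 (0.45 ± 0.04). Among relatives and partners of Egflam it was positive for Dag1 (0.64 ± 0.04) and Lama5 (0.27 ± 0.04) and negative for Hspg2 (-0.41 ± 0.03). Among relatives and partners of Tcf23 it was negative for Msc (-2.03 ± 0.60), Tal1 (-1.94 ± 0.21), Tcf15 (-1.15 ± 0.07), Tcf3 (-0.66 ± 0.06) and Id1 (-0.56 ± 0.12) and positive for Tcf24 (0.96 ± 0.38), Tcf4 (0.62 ± 0.12) and Tcf12 (0.39 ± 0.07). Tal1, Tcf15, Tcf3 and Id1 fell in the Virma line and rose in the Mettl3 line. The calls for the falls of Tcf15 and Id1 were lost under scaling by total. The rise of Tal1 no longer passed without replicate 1 of Mettl3_cKO, as given above. Of the genes around Ffar3 it passed for Rgs3 (-1.20 ± 0.15).

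Among chromosome neighbours the difference was negative for Lifr (-1.07 ± 0.08) and Preb (-0.40 ± 0.06) and positive for Osmr (1.19 ± 0.23), Mdfic (0.70 ± 0.22), Slc5a6 (0.46 ± 0.10) and Tes (0.38 ± 0.07). The differences no longer passed when certain single libraries were left out for Mdfic (adjusted p up to 0.118), Mitf (up to 0.0895), Tcf24 (up to 0.272) and Msc (0.0546). The targeted genes differed as well, with Virma (-0.43 ± 0.07) and Mettl3 (-0.39 ± 0.09). For Mettl3 the log2 fold change was -0.43 ± 0.06 in Virma_cKO (limma, adjusted p = 4.97e-06) and -0.04 ± 0.06 in Mettl3_cKO.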

How the results depend on the processing

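The log2 fold changes of Egflam, Tcf23 and Ffar3 kept their negative sign in both lines in all 17 settings tried for each. In the Virma line they ran from -4.17 to -3.92 for Egflam, -4.09 to -3.68 for Tcf23, -3.80 to -3.33 for Tfec and -5.48 to -3.04 for Ffar3, and -3.04 came from a pseudocount of 5. In the Mettl3 line Tfec ran from -0.43 to 0.0289, the sign change coming without replicate 1 of Mettl3_WT. The count of genes called was 8716 in the Virma line, 8203 in the Mettl3 line and 6662 for the difference of effects. When single libraries were left out, with the lone library assumed to vary like the other groups, it ran from 7226 to 9766, from 6790 to 8453 and from 5480 to 7517. With the replicate number as a block the counts were 8802, 8307 and 6778; the numbers do not pair the libraries. Chosen after seeing the data, the Virma_cKO pair taken as 1 sample gave 7191, 7795 and 5436. For the difference of effects 54.5% of calls were lower, and 39.8% under scaling by total. For 58 of the other genes named, 2769 of 2881 recomputed values stayed on their side of the threshold. The call was lost in 80 and gained in 31. The sign changed in 30, of which 28 passed under neither setting. Under scaling by total Tes in Virma_cKO turned to 0.0189. Count models and their size factors were not run, since the values are not counts. Low values in Mettl3_WT, where 1 read is worth 2.55 or 2.76, limit the Mettl3 line.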
